A study of Mus musculus with 10 samples.

Results

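Cytosolic ribosomal protein genes were followed in whole lungs of young mice with increased pulmonary flow (IPF). They were taken from the gene names alone, as protein-coding rows named Rpsa or with an Rpl, Rps or Rplp name built on a number, and 83 of the 54532 genes in the deposited table met the rule. These comprised 32 genes of the small ribosomal subunit, 48 of the large subunit and the 3 genes of the ribosomal stalk. Fau, Rpl36al, Rps27rt and Rack1, which also encode ribosomal or ribosome-bound proteins, have names outside the rule and are given separately.

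Lung RNA came from wild-type C57BL/6J mice operated on at postnatal day 7 and collected at postnatal day 30 (P30). The IPF group (n = 5) received an aortocaval fistula, an opening between the abdominal aorta and the inferior vena cava that sends more blood through the lungs, and the sham group (n = 5) had the same laparotomy without the puncture. Each sample was treated as 1 mouse, which the sample records do not state in words, and without separate animals the p-values would measure technical spread only. Pups of both sexes entered the study according to its methods, yet Xist lay between 26.8 and 43.2 FPKM in IPF lungs and between 0.030 and 0.077 in sham lungs, while the Y-linked Ddx3y was listed at 0 in all IPF lungs and lay between 14.3 and 21.4 in sham lungs. The clock gene Nr1d1 ranged from 1.03 to 4.28 FPKM in IPF and from 31.0 to 42.6 FPKM in sham lungs. Sex and whatever sets the clock genes therefore cannot be told apart from the operation in any comparison below. Depth was 15483046 to 19026843 reads on genes per sample, of which 208850 to 416465 fell on the ribosomal protein genes.

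Ribosomal proteins are made in fixed proportion to one another and to ribosomal RNA, since each ribosome holds 1 copy of nearly all of them. Their mRNAs are short and abundant, and most begin with a tract of C and T bases, the terminal oligopyrimidine (TOP) tract, through which the kinase mTOR and the RNA-binding protein Larp1 control their translation. In the lung, as elsewhere, they are expressed by every cell type. A few carry a second gene with a restricted pattern, such as Rpl3l in heart and skeletal muscle and Rpl10l and Rpl39l in testis.

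The sequence around the annotated start of the mRNA is shown because a TOP tract, where a gene has one, opens the mRNA. RefSeq promoters (GRCm38.p6, the build of the deposited table) were found for 63 of the 83 genes, and 10 bases before to 20 bases after the start were read. Capitals mark the longest unbroken run of C and T anywhere in this window, on the strand that reads like the mRNA. The run need not begin at the start and is not in itself a TOP tract.
Rpl27a: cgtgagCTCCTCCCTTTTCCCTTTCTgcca
Rpl35: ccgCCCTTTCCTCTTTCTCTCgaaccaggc
Rplp2: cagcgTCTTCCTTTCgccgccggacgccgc
Rpl13a: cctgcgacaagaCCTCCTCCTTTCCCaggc
Rps27: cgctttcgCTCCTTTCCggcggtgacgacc
Rps10: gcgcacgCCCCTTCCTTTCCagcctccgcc
Rpl22l1: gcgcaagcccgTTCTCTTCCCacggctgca
Rpl39l: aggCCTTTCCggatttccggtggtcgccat
Rplp0: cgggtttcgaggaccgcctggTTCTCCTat
Rps4x: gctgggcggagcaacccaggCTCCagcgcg
Rpl7l1: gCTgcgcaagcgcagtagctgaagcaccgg

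The windows lie at chr7:109519185-109519214 (plus strand) for Rpl27a, chr2:39005112-39005141 (minus) for Rpl35, chr7:141447641-141447670 (plus) for Rplp2, chr7:45128726-45128755 (minus) for Rpl13a, chr3:90213629-90213658 (minus) for Rps27 and chr17:27635225-27635254 (minus) for Rps10. Those of the other genes lie at chr3:28805498-28805527 (plus) for Rpl22l1, chr16:10170218-10170247 (plus) for Rpl39l, chr5:115559457-115559486 (plus) for Rplp0, chrX:102189372-102189401 (minus) for Rps4x and chr17:46782637-46782666 (minus) for Rpl7l1. Rpl27a had the longest run, of 20 bases, and Rpl35 the next, of 18. A run of at least 8 bases stood in this window in 24 of the 63 genes (38.1%), against 13% of all 27025 genes with a promoter in the set and 13.7% of 11452 other protein-coding genes tested here. Among the paralogs, Rpl22l1 had a run of 10 bases, Rpl39l of 7 and Rpl7l1 of 2. The 7-letter motif CCGGAAG, searched on both strands of the whole 300-base promoter, was present in 26 of the 63 genes (41.3%), against 9.93% of all genes and 17.9% of the other protein-coding genes. Its reverse complement begins with C and T bases, so that the motif and a run can overlap. A match describes the letters only and is not evidence of a bound factor.

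Levels in the lung were high and unequal. The 83 genes had a median of 108 FPKM (fragments per kilobase of gene, scaled to sequencing depth, averaged over the 10 samples), 47 were at or above 100 FPKM and 77 at or above 10 FPKM. Rplp1 was highest with 825 FPKM, followed by Rps3a1 with 672, Rps15 with 488, Rplp0 with 421 and the X-linked Rps4x with 372. At the other end, Rps10 had 1.496 FPKM, Rpl24 had 1.12, Rpl39l had 0.121, Rpl3l had 0.068 and Rpl10l was listed at 0 in every sample. For Rps10 and Rpl24, most of the matching reads were assigned to near-identical copies elsewhere in the genome. Rps10 and its copies held 11044 reads over the 10 lungs, whereas Rpl24 and its copies held 962, fewer than any other gene of the set above 1 FPKM. The gene lengths behind FPKM are those of all annotated exons together, from 383 bases for Rpl36 to 6270 bases for Rps15a with a median of 1739, and genes with a long annotated length had lower values (Pearson's r = -0.19, Spearman's rho = -0.41 across the 81 tested genes, which share libraries and are not independent).

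Sham replicate 1 stood apart from the other 9 samples in these genes, and this is given before the comparison because it bears on every value. It held the lowest value of the 10 samples in 76 of 81 tested genes, whereas the same was true of 17.1% of all genes tested. Respiratory chain genes were lowest there in 75 of 87, mitochondrial ribosomal protein genes in 63 of 77 and ribosomal protein pseudogenes in 46 of 104. The mean of log2(FPKM + 0.1) over the 81 genes was 6.41, 6.75, 6.62, 6.53 and 6.73 in IPF replicates 1 to 5, and 5.84, 6.64, 6.56, 6.62 and 6.44 in sham replicates 1 to 5. The other 4 sham lungs thus lay inside the range of the IPF lungs, and sham replicate 1 lay 0.60 below the next sample of its group. As a share of all FPKM, the genes held 3.86%, 4.62%, 3.96%, 4.06% and 4.47% in the IPF lungs and 2.58%, 4.12%, 4.00%, 3.92% and 3.796% in the sham lungs.

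**Figure D1:**
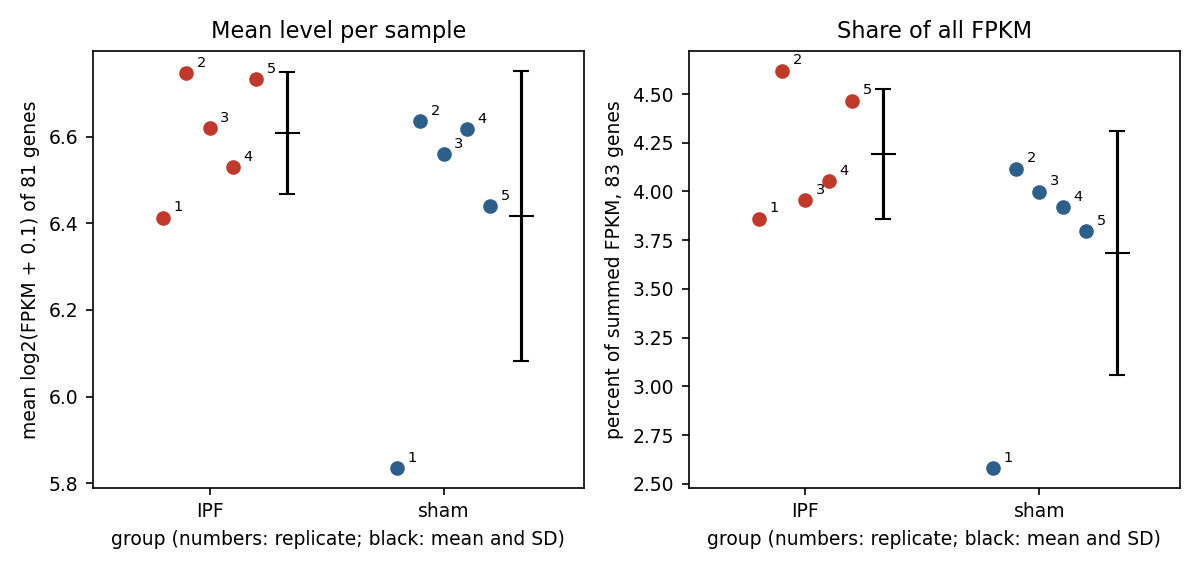
Mean log2(FPKM + 0.1) of the 81 tested ribosomal protein genes (left) and the share of summed FPKM held by all 83 genes in percent (right), 1 point per lung with its replicate number, and mean and SD in black. Sham 1 lies at 5.84 and 2.58%, while the other sham lungs lie between 6.44 and 6.64 and between 3.796% and 4.12%; the vertical axes do not start at 0.

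Within sham replicate 1 the fall was shared by nearly the whole set but was not equal. The median log2 difference from the mean of the other 4 sham lungs was -0.69, and 15 genes were more than 1 log2 unit lower, against 1.39% of all tested protein-coding genes. Rpl39, which lines the exit tunnel of the large subunit, had 28.1 FPKM there and 72.8 to 88.3 in the other sham lungs. Rps27 had 49.4 against 124 to 149 FPKM, Rps14 had 104 against 253 to 299 FPKM, and the stalk gene Rplp1 had 365 against 794 to 918 FPKM. Rps3a1 was much less reduced, with 532 against 620 to 684 FPKM. In Rpl21, Rpl24, Rpl7a and Rps10 the lowest sample was another lung, and Rpl39l was listed at 0 in sham replicate 1 and in 4 other lungs. Rpl21 was 0.11 higher in sham replicate 1 than the mean of the other sham lungs on the log2 scale, Rpl24 was 0.08 higher, and Rps10 was equal to 2 decimals at 0.00.

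**Figure D2:**
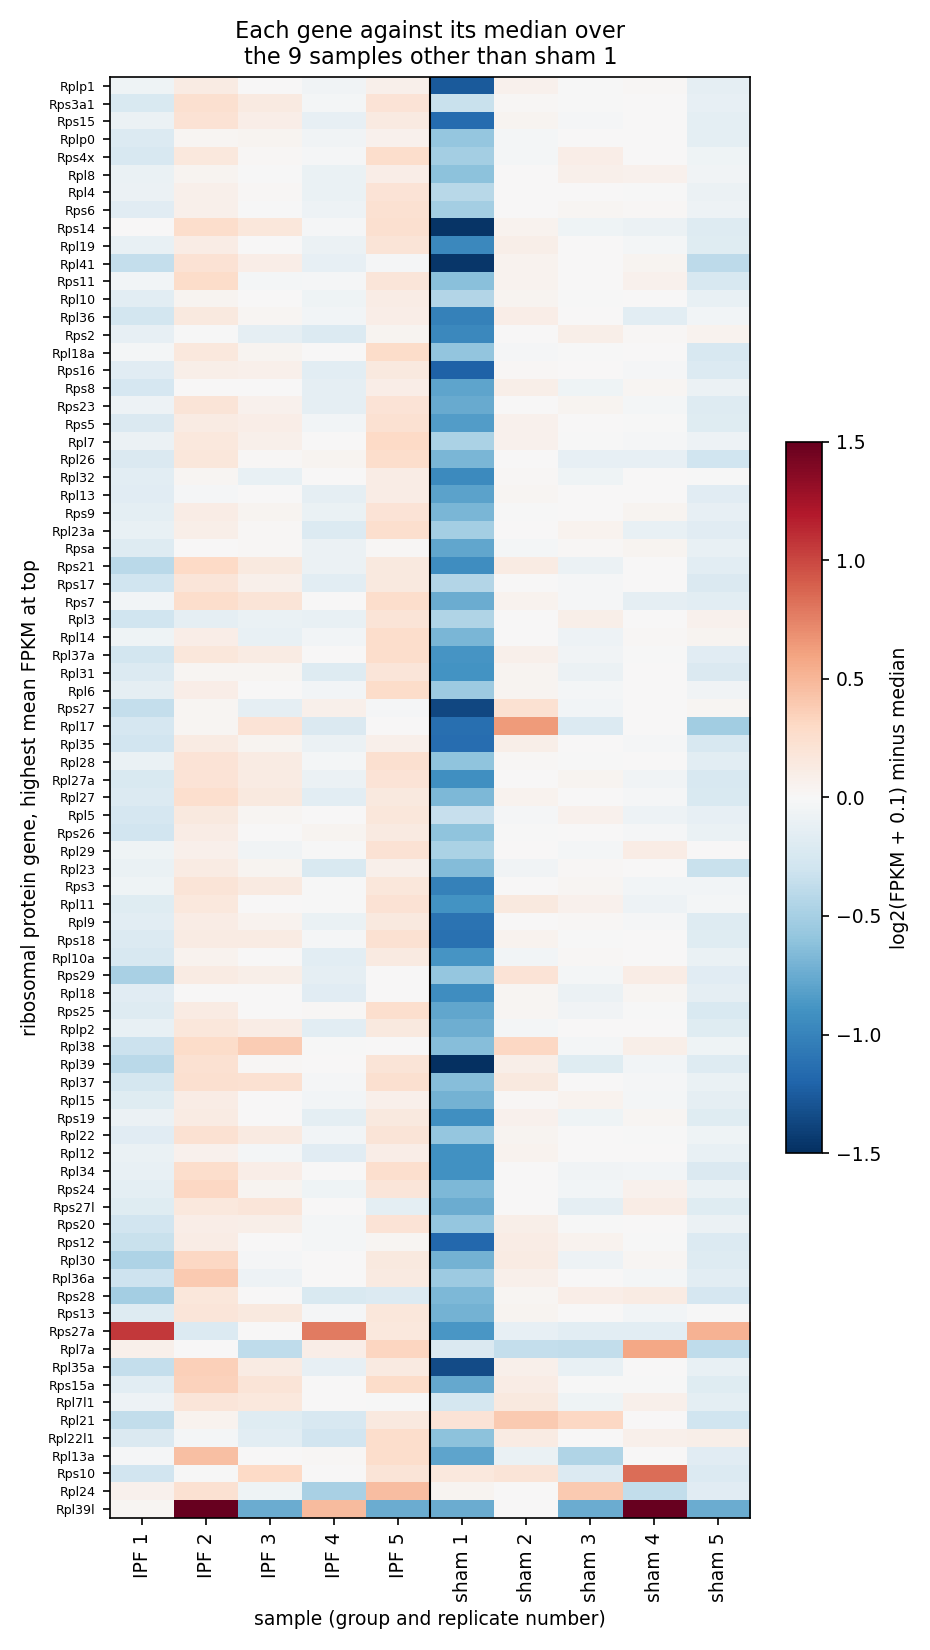
Deviation of each tested ribosomal protein gene (rows, highest mean FPKM at the top) in each lung (columns) from its median over the 9 lungs other than sham 1, in log2(FPKM + 0.1), with colours ending at 1.5 in either direction. The column of sham 1 is low in nearly every row, IPF 2 and IPF 5 are slightly high, IPF 1 and sham 5 slightly low, and Rps27a, Rpl7a, Rpl17, Rpl21, Rps10, Rpl24 and Rpl39l depart from the common pattern.

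The other lungs also showed a shared, smaller variation that ran through both groups. The median deviation of the 81 genes was 0.17 in IPF replicate 5 and 0.13 in IPF replicate 2, which held the highest value in 40 and 29 genes, respectively. It was -0.18 in IPF replicate 1 and -0.16 in sham replicate 5, and between -0.04 and 0.03 in the remaining lungs except sham replicate 1, at -0.73. The subunits moved together. The small-subunit mean minus the large-subunit mean of log2(FPKM + 0.1) was 0.573 ± 0.038 (SD, n = 5) in IPF and 0.559 ± 0.043 (SD, n = 5) in sham lungs, with the lowest value, 0.494, in sham replicate 1.

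Sham replicate 1 differed in other genes too. It had the most genes above 0, 25486 against 22475 to 23575 elsewhere. Its reads included 0.642% on lincRNA and antisense genes against 0.463% to 0.585% in the other 9 lungs, 0.129% on TEC genes (models still to be experimentally tested) against 0.0863% to 0.106%, and 0.391% on pseudogenes against 0.442% to 0.498%. The summed level of the alveolar type 2 markers (5 of 5 measured) was 12346 FPKM against 18128 to 19788 in the other sham lungs and 16405 to 18520 in IPF lungs. It was also the lowest of the 10 lungs for the summed markers of endothelium (844.5 against 863.5 to 1112 FPKM), ciliated cells (147 against 155 to 248.6 FPKM) and T cells (4.64 against 5.90 to 9.89 FPKM), and not for those of club cells, heart muscle or cycling cells. Its summed neutrophil markers (5 of 5 measured) stood at 13.9 FPKM against 19.0 to 70.2 in the other sham lungs and 50.7 to 291 in IPF lungs. No marker of these lists was at 0 in all lungs. Between the groups, the 4 B cell markers were all called higher in IPF (limma), where 3.71% of all tested genes were called higher. Their summed level was 30.7 to 45.7 FPKM in IPF lungs against 16.5 to 27.2 FPKM in sham lungs. The endothelial sum was 981 to 1112 FPKM in IPF and 844.5 to 891 FPKM in sham lungs, with 1 of 4 markers called higher. The T cell sum was 7.24 to 9.89 FPKM in IPF and 4.64 to 7.32 FPKM in sham lungs, with 1 of 5 markers called higher. The part of these differences, or of RNA quality, in the ribosomal protein values was not tested. In whole-lung RNA, fewer cells of a type and less RNA per cell cannot be told apart.

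Between IPF and sham, no ribosomal protein gene passed the test. Of the 81 genes with a mean of at least 0.1 FPKM, 0 passed an adjusted p of 0.05 by limma on log2(FPKM + 0.1), where 5.85% of all 20448 tested genes did (3.71% higher and 2.14% lower in IPF). Rpl3l and Rpl10l were below the minimum and were not tested. At an unadjusted p under 0.05 there were 3 genes, Rpl13a, Rps7 and Rpl26, all with higher means in IPF, while 19.5% of all genes met that limit, 11.2% with higher means in IPF. Without sham replicate 1 again 0 passed the adjusted limit, where 4.95% of all genes did, and 3 (Rpl13a, Rps14 and Rps7) had an unadjusted p under 0.05, against 18.1% of all genes. With limma voom on the recovered reads 0 were called as well, where 7.16% of all genes were, and 6 had an unadjusted p under 0.05, against 20.4% of all genes. In 0 of the 81 genes were the IPF and sham values free of overlap, against 7.29% of all genes.

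The fold changes leaned to one side in the full comparison, and it was smaller without sham replicate 1. With all 10 lungs, 76 log2 fold changes were positive and 5 negative (Rpl21, Rps10, Rpl3, Rps28 and Rpl22l1), with a median of 0.19. Over all tested genes the median was 0.00 and 50.4% were positive. Among other tested protein-coding genes the median was 0.14 up to 1000 bases, 0.09 from 1000 to 2000 bases and -0.03 above 5000 bases. The 81 genes share the same lungs, so the signs of their fold changes are not independent. Without sham replicate 1, 62 were positive and 19 negative, with a median of 0.05, against 50.2% positive over all genes. The per-sample mean of the set was 6.61 ± 0.14 (SD, n = 5) in IPF and 6.42 ± 0.33 (SD, n = 5) in sham lungs, a difference of 0.19 ± 0.16 (SE). It was 6.56 ± 0.09 (SD, n = 4) without sham replicate 1, a difference of 0.04 ± 0.08 (SE). The share of summed FPKM was 4.19% ± 0.33 (SD, n = 5) in IPF against 3.68% ± 0.63 (SD, n = 5) in sham lungs, and 3.96% ± 0.14 (SD, n = 4) without sham replicate 1.

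The intervals of most single genes were narrower once that lung was left out. The median standard error of a log2 fold change fell from 0.15 to 0.09. The 95% interval lay within 0.5 log2 units of 0, a 1.41-fold change in either direction, for 31 of 81 genes with all lungs and for 74 of 81 without sham replicate 1. The 7 others were Rpl13a, Rpl21, Rpl24, Rpl39l, Rpl7a, Rps10 and Rps27a. Intervals are from the same limma fit and take no account of the number of genes. Sham replicate 1 was singled out for its low values in these same genes, so the intervals without it can be too narrow.

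**Figure D3:**
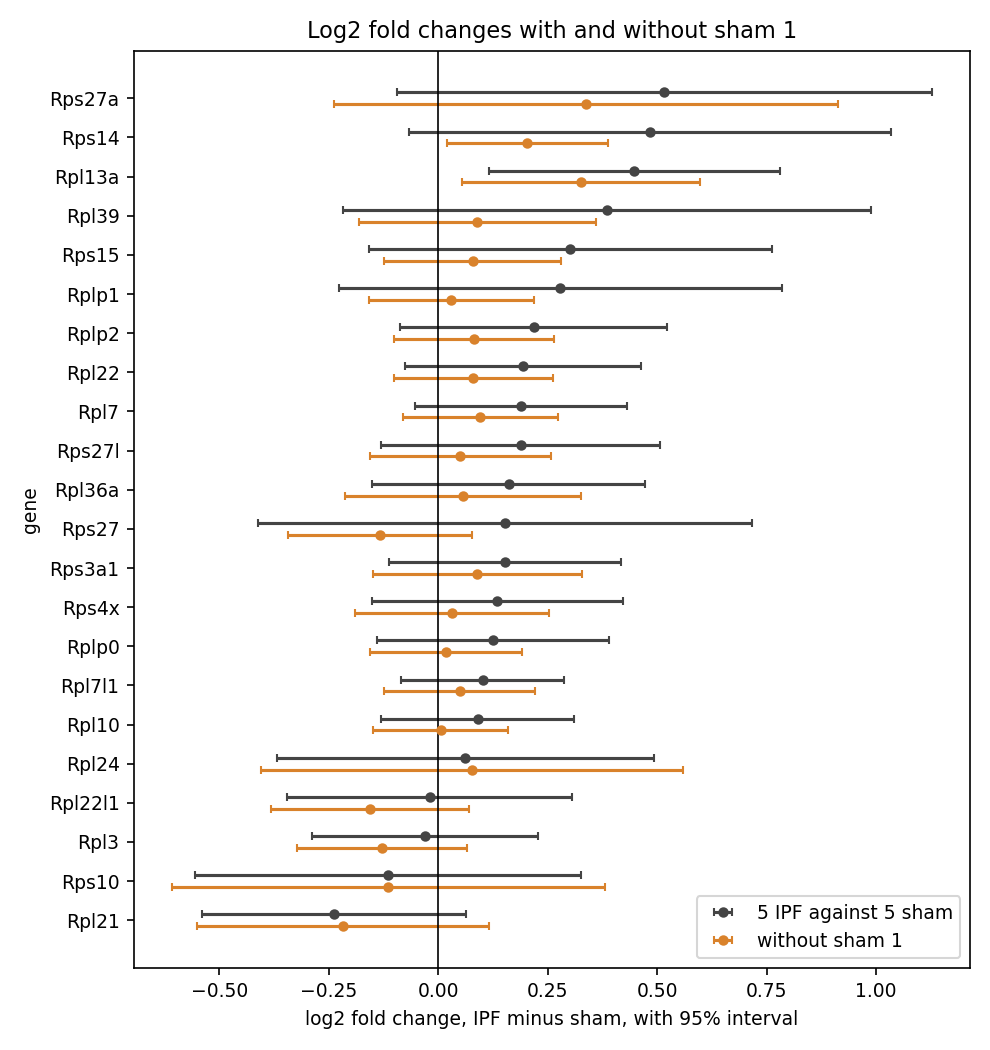
Log2 fold change (IPF minus sham) with its 95% interval for 22 named ribosomal protein genes, with all 10 lungs (grey) and without sham 1 (orange). Leaving out sham 1 moved Rps14 from 0.48 to 0.20 and Rps27 from 0.15 to -0.13, and narrowed most intervals; intervals clear of 0 here are those at an unadjusted p under 0.05.

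The stalk proteins bind the elongation factors that drive translation, and their 3 genes are given first. Rplp1 was 834, 950, 875, 842 and 920 FPKM in the IPF lungs and 365, 918, 870, 883 and 794 FPKM in the sham lungs. Apart from sham replicate 1, the groups overlapped. Its log2 fold change was 0.28 ± 0.23 (SE, adjusted p = 0.558, limma) and 0.03 ± 0.09 without that lung. Rplp0 was 384, 453, 456, 428 and 467 FPKM in IPF and 298, 435, 446, 444 and 400.5 FPKM in sham lungs, with a log2 fold change of 0.12 ± 0.12 (SE, adjusted p = 0.624, limma). Rplp2 had a log2 fold change of 0.22 ± 0.14 (SE, adjusted p = 0.431, limma), from 77.3 to 97.0 FPKM in IPF and from 51.9 to 86.7 FPKM in sham lungs. The order of Rplp1 above Rplp0 belongs to the per-length scale, since in reads Rplp0 (8141 to 14302 per lung) exceeded Rplp1 (3000 to 8253 per lung).

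After Rplp1, the next genes in level were 2 of the small subunit. Rps3a1 was 572, 795, 742, 658 and 774 FPKM in the IPF lungs and 532, 684, 668, 673 and 620 FPKM in the sham lungs. Rps15, a protein of the small-subunit head, was 480, 594, 545, 468 and 561 FPKM in IPF and 230, 526, 503, 511 and 461 FPKM in sham lungs. IPF replicates 2, 3 and 5 lay above all sham lungs in both genes and IPF replicates 1 and 4 did not. The log2 fold changes were 0.15 ± 0.12 (SE) for Rps3a1 and 0.30 ± 0.21 (SE) for Rps15, with adjusted p of 0.539 and 0.475 (limma), and fell to 0.09 and 0.08 without sham replicate 1.

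Rpl13a had the smallest adjusted p of the set. Beside its place in the large subunit, this protein is known from a complex that silences the translation of inflammatory mRNAs after interferon-gamma. It was 7.28, 10.1, 7.38, 7.42 and 8.88 FPKM in the IPF lungs and 4.22, 6.86, 5.33, 7.36 and 6.51 FPKM in the sham lungs. Only IPF replicate 1 overlapped the sham lungs, below sham replicate 4. The log2 fold change was 0.45 ± 0.15 (SE, adjusted p = 0.120, limma; exact two-sided permutation p = 0.0159, unadjusted), and 0.33 ± 0.12 (SE, adjusted p = 0.183, limma) without sham replicate 1. These values rest on 147 to 356 reads per lung. The mean of the row was 7.13 FPKM, rank 78 of the 83 genes, against a median of 108 FPKM for the set. With its copies the gene held 2790 reads over the 10 lungs.

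Rps14, whose human counterpart is lost in the 5q- form of myelodysplasia, had the second largest positive fold change. It was 289, 346, 324, 285 and 341 FPKM in the IPF lungs and 104, 299, 276, 271 and 253 FPKM in the sham lungs. Of the IPF lungs, 3 exceeded every sham lung and 2 lay below sham replicate 2. The log2 fold change was 0.48 ± 0.25 (SE, adjusted p = 0.323, limma) and fell to 0.20 ± 0.08 (SE, adjusted p = 0.228, limma) without sham replicate 1. Rps7 was 142, 175, 168, 146 and 176 FPKM in IPF against 87.0, 152, 145, 133 and 131 FPKM in sham lungs, a log2 fold change of 0.34 ± 0.14 (SE, adjusted p = 0.208, limma). Rpl26 had a log2 fold change of 0.30 ± 0.13 (SE, adjusted p = 0.235, limma). Both proteins are known to bind Mdm2, the ubiquitin ligase of p53, and both genes were named after their unadjusted p was seen.

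Rps27a encodes a ribosomal protein fused to ubiquitin, and its values did not follow the others. It was 85.8, 35.8, 41.3, 71.0 and 46.2 FPKM in the IPF lungs and 22.5, 37.9, 37.1, 36.9 and 59.3 FPKM in the sham lungs. IPF replicates 1 and 4 and sham replicate 5 were high, 3 lungs in which most ribosomal protein genes were below their median. Its log2 fold change was the largest of the set, 0.52 ± 0.28 (SE, adjusted p = 0.344, limma), with a 95% interval from -0.10 to 1.13. Without sham replicate 1 it was 0.34 ± 0.26 (SE, adjusted p = 0.559, limma).

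Rpl21 had the largest negative fold change. Its own row was 11.3, 15.1, 12.8, 12.3 and 16.1 FPKM in the IPF lungs and 16.8, 19.1, 18.1, 14.6 and 11.8 FPKM in the sham lungs, a log2 fold change of -0.24 ± 0.14 (SE, adjusted p = 0.377, limma). With the reads of its near-identical copies added the value was 0.09. Rps10 followed with -0.11 ± 0.20 (SE) and turned to 0.24 with copies added. Rpl3, which reaches the catalytic centre of the large subunit, was 121, 136, 139, 138 and 170 FPKM in IPF and 109, 149, 158, 149 and 156 FPKM in sham lungs. Its log2 fold change was -0.03 ± 0.12 (SE, adjusted p = 0.926, limma).

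Processed copies bear on how far each row stands for its gene. Ribosomal protein mRNAs have left many reverse-transcribed copies in the mouse genome, and reads that fit a gene and its copy can be assigned to either. Transcripts of the GENCODE annotation (GRCm39) were compared with the coding sequence of each gene. At 95% identity over at least 80% of the coding sequence, 622 copies were found, of which 559 were in the table. Rows longer than 2 times the coding sequence were left out, and 526 copies were kept, 503 of them annotated as pseudogenes. Copies were kept for 70 of the 83 genes, and reads on copies that were left out are not counted below. In the 69 of these genes with any reads, the gene's own row held a median of 93.2% of the reads of gene and copies together and over 90% in 45 genes, but under 50% in 4. These were Rps10 with 5.37%, Rpl24 with 20.4%, Rpl17 with 29.6% and Rpl21 with 34.4%.

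The coding sequences show how little separates 3 of these genes from a copy that held more reads than the gene's own row. A stretch of 60 bases is printed for each pair, with the bases that differ in capitals.
Rps10: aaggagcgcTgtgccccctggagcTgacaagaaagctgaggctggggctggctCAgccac
Rps10-ps2: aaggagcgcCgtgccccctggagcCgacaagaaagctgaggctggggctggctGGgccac
Rpl24: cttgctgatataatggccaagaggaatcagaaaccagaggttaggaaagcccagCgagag
Gm9385: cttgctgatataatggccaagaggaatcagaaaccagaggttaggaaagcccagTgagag
Rpl21: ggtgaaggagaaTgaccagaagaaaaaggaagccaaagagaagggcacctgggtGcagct
Rpl21-ps15: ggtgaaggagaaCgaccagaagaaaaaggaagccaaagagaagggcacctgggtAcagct

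The stretches are coding bases 384 to 443 of Rps10, 259 to 318 of Rpl24 and 324 to 383 of Rpl21, counted from the start codon. Over the whole coding sequence Rps10 (chromosome 17) and Rps10-ps2 (chromosome 16) differ at 5 of 495 bases, Rpl24 (chromosome 16) and Gm9385 (chromosome 9) at 1 of 471, and Rpl21 (chromosome 5) and Rpl21-ps15 (chromosome X) at 3 of 480. Rps10-ps2 was 110, 131, 120, 120 and 143 FPKM in the IPF lungs and 64.1, 125.6, 119, 118 and 106 FPKM in the sham lungs. Its low value in sham replicate 1 matches the common pattern of the ribosomal protein genes, which the row of Rps10 itself lacks, at 1.09, 1.35, 1.69, 1.35 and 1.57 FPKM in IPF and 1.52, 1.57, 1.16, 2.49 and 1.16 FPKM in sham lungs. Rpl21-ps15 was likewise lowest in sham replicate 1, at 86.4 FPKM against 126.4 to 161 FPKM elsewhere.

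**Figure D4:**
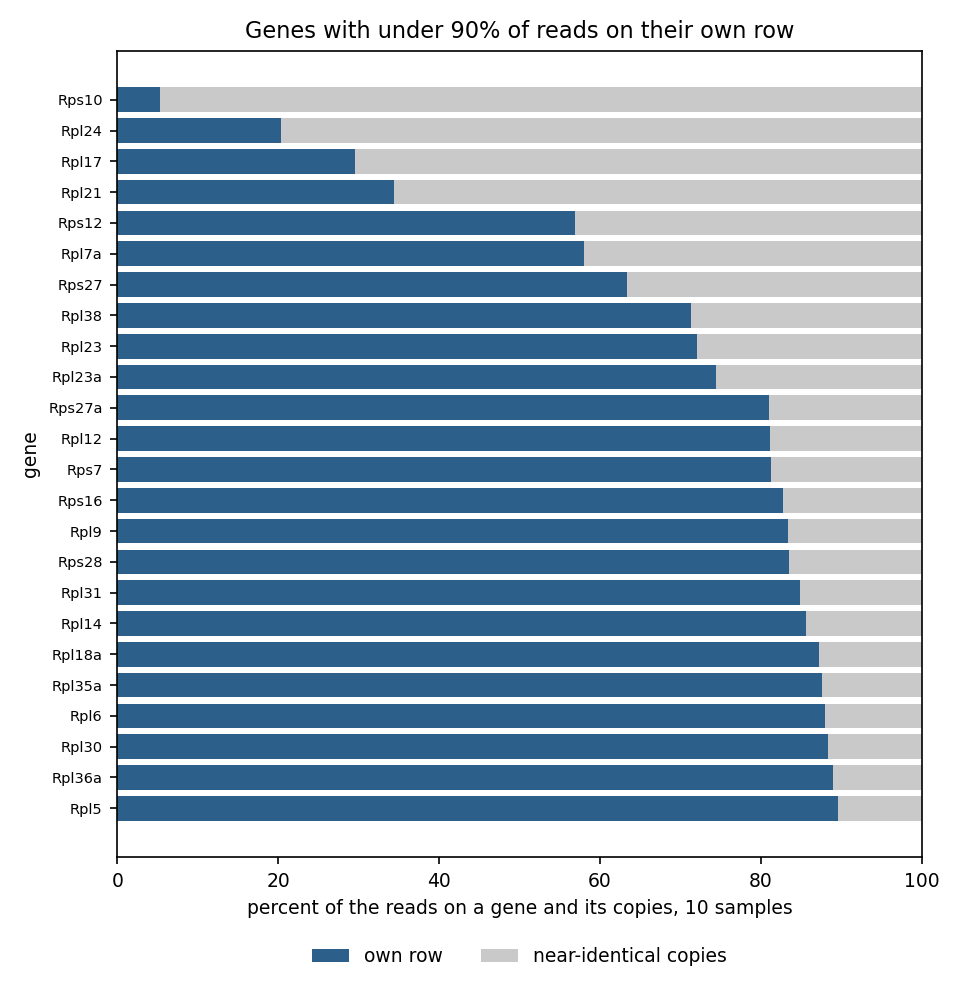
Percent of the reads on each ribosomal protein gene and its near-identical copies that fell on the gene's own row (blue) or on the copies (grey), summed over 10 lungs, for the genes with under 90% on their own row. Rps10, at 5.37%, Rpl24, Rpl17 and Rpl21 had under 50% on their own row.

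The share of reads on gene and copy also varied from lung to lung, and whether this came from read assignment or from expression was not tested. Rpl17 was 187 FPKM in sham replicate 2 and 54.7 to 138 FPKM elsewhere, while Rpl17-ps10, which differs from it at 4 of 552 coding bases, was 106 FPKM in sham replicate 2 and 129 to 259 FPKM elsewhere. The own row of Rpl17 thus held from 24.5% to 46.6% of the reads of gene and copies. Rpl7a, chosen like Rpl17 after its values were seen, was 48.9 FPKM in sham replicate 4 and 24.96 to 40.7 FPKM elsewhere, and its own share ranged from 46.6% to 66.8%. With the reads of copies added to every gene, 0 of 81 genes were called (smallest adjusted p = 0.159, limma), where 5.85% of all genes were, and the median log2 fold change was 0.19.

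The paralogs ranged from undetected to well expressed. Rpl10l was listed at 0 in all 10 lungs, whereas its X-linked parent Rpl10 lay between 237 and 286 FPKM in IPF and between 195 and 271 FPKM in sham lungs. Rpl3l was listed at 0 in 5 lungs, with 0.267 FPKM in IPF replicate 4 as its highest value, from at most 8 reads. Rpl39l was listed at 0 in 5 lungs and reached 0.505 FPKM in IPF replicate 2 and 0.433 FPKM in sham replicate 4, with at most 7 reads per lung. At this depth a difference in either gene was not detectable. Rpl22l1 was 11.0, 12.5, 11.4, 10.4 and 15.3 FPKM in IPF and 8.30, 13.9, 12.7, 13.4 and 13.5 FPKM in sham lungs, a log2 fold change of -0.02 ± 0.15 (SE, adjusted p = 0.965, limma). Its parent Rpl22 had 0.19 ± 0.12 (SE, adjusted p = 0.429, limma). Rpl7l1, a relative of Rpl7, had the smallest standard error of the set, from 21.0 to 25.03 FPKM in IPF and 18.4 to 24.5 FPKM in sham lungs, with a log2 fold change of 0.10 ± 0.08 (SE), against 0.19 ± 0.11 (SE) for Rpl7. Rps27l, known as a p53 target, had 0.19 ± 0.15 (SE, adjusted p = 0.527, limma).

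Rps27 and the retrogene Rps27rt have identical coding sequences (252 of 252 bases) and gave different values. Rps27 was 99.9, 131, 116, 135 and 127 FPKM in IPF and 49.4, 149, 124, 128 and 131 FPKM in sham lungs, a log2 fold change of 0.15 ± 0.26 (SE, adjusted p = 0.800, limma) that was -0.13 without sham replicate 1. Rps27rt was 154, 346, 249.2, 161 and 299 FPKM in IPF and 122, 130, 145, 169 and 115 FPKM in sham lungs. Only sham replicate 4 exceeded 2 of the IPF lungs. The log2 fold change of Rps27rt was 0.77 ± 0.22 (SE, adjusted p = 0.0695, limma), and 0.73 without sham replicate 1. Because the coding reads of the pair cannot be told apart, the values of Rps27 and Rps27rt are uncertain, and with copies added Rps27 had a log2 fold change of 0.36.

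The 4 X-linked genes are given apart because the sex-linked genes split the groups. Rps4x was 320, 420, 381, 372 and 452 FPKM in IPF and 264, 370, 405, 377 and 361 FPKM in sham lungs, with a log2 fold change of 0.14 ± 0.13 (SE, adjusted p = 0.623, limma). Rpl39 was 63.05, 97.4, 84.5, 83.3 and 95.2 FPKM in IPF and 28.1, 88.3, 73.5, 81.2 and 72.8 FPKM in sham lungs, with a log2 fold change of 0.39 ± 0.27 (SE, adjusted p = 0.486, limma) that fell to 0.09 without sham replicate 1. Rpl10 had 0.09 ± 0.10 (SE) and Rpl36a 0.16 ± 0.14 (SE). Of the 4, 0 passed the test (limma) and 0 had an unadjusted p under 0.05, where 5.85% and 19.5% of all tested genes did. With 4 genes these counts say little. The median log2 fold change of the 4 was 0.15, against 0.19 for all 81 genes.

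Gene length was examined because ribosomal protein genes are short and sham replicate 1 was low in short genes in general. Among tested protein-coding genes outside the set, the median deviation of sham replicate 1 from the other lungs was -0.46 (log2) for genes of up to 1000 bases (528 genes), -0.30 for 1000 to 2000 bases, -0.16 for 2000 to 3000 bases, -0.04 for 3000 to 5000 bases and 0.12 above 5000 bases (5885 genes). The ribosomal protein genes lay lower and did not follow this slope. Their medians in that lung were -0.74, -0.67, -0.75, -0.74 and -0.72 over the same length classes, with 13, 33, 19, 14 and 2 genes. In IPF replicate 5 and IPF replicate 1 the other genes stayed between -0.03 and 0.01 in every class, whereas the ribosomal protein genes lay between 0.10 and 0.23 and between -0.21 and -0.15.

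**Figure D5:**
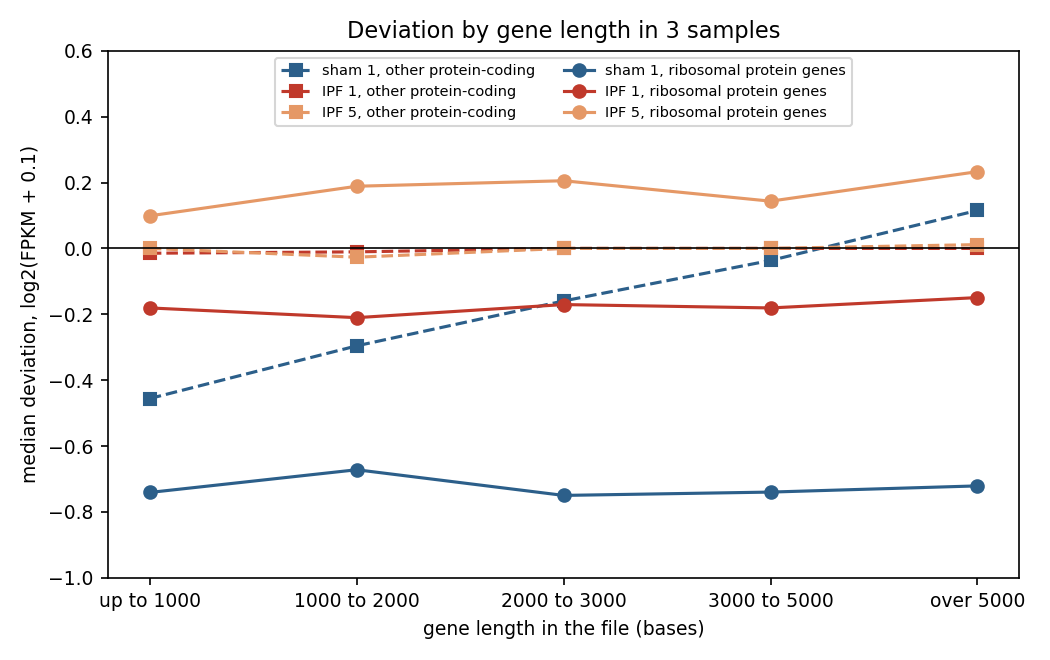
Median deviation of log2(FPKM + 0.1) from the median of the 9 lungs other than sham 1, by gene length in the file, for ribosomal protein genes (circles, solid) and other tested protein-coding genes (squares, dashed) in 3 lungs. In sham 1 the other genes rise from -0.46 to 0.12 with length while the ribosomal protein genes stay between -0.75 and -0.67; the longest class holds 2 ribosomal protein genes.

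Removing the length trend, fitted in each lung on the other protein-coding genes, lowered the median log2 fold change of the set from 0.19 to 0.12, and to 0.01 when sham replicate 1 was also left out. In both fits 0 of 81 genes were called, with smallest adjusted p of 0.115 and 0.215 (limma), where 6.71% and 5.37% of all genes were. Within the set, gene length was almost unrelated to the log2 fold change (Pearson's r = -0.06, Spearman's rho = -0.05 across 81 genes, which share their libraries).

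Genes that work with the ribosome are given from lists, each to be read against a median of 0.00 and 3.71% of genes higher and 2.14% lower over all tested genes. Of the genes with names outside the rule, Fau was 294 to 375 FPKM in IPF and 147 to 330 FPKM in sham lungs, Rack1 was 77.9 to 105 FPKM and 51.6 to 91.4 FPKM, and neither was called (adjusted p = 0.328 and 0.538, limma). Rpl36al, a retrogene relative of Rpl36a, was 0.222 to 0.547 FPKM in IPF and 0.135 to 0.460 FPKM in sham lungs, with a log2 fold change of 0.37 ± 0.28 (SE, adjusted p = 0.531, limma). Of 20 translation factors and other genes with TOP mRNAs, 0 were higher and 1 lower, with a median log2 fold change of 0.12. The exception, Hnrnpa1, an RNA-binding protein of splicing, fell by 0.34 ± 0.07 (SE, adjusted p = 0.0130, limma), from 65.5 to 72.6 FPKM in sham to 50.005 to 60.8 FPKM in IPF lungs with no overlap, and kept its call without sham replicate 1 (adjusted p = 0.0247, limma). The elongation factor gene Eef1a1 had 0.05 ± 0.14 (SE) and Eef2 0.00 ± 0.11 (SE), and neither was called. Of 36 genes of ribosome biogenesis 0 were called, with a median of 0.01 and the smallest adjusted p of 0.0554 (limma) in Heatr1, a factor of ribosomal RNA synthesis.

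Of 14 genes that control ribosomal protein synthesis, 1 rose and 0 fell. Mycn, a transcription factor of the Myc family, rose by 0.83 ± 0.15 on the log2 scale (SE, adjusted p = 0.00768, limma), from 0.756 to 1.13 FPKM in sham to 1.27 to 1.88 FPKM in IPF lungs, and was called without sham replicate 1 too (adjusted p = 0.0182, limma). The B cell, endothelial and T cell markers moved with the groups as well, and their part in the Mycn and Hnrnpa1 differences was not tested. Myc had 0.10 ± 0.11 (SE), Mtor -0.17 ± 0.11 (SE) and Larp1 0.13 ± 0.08 (SE), and these were not called. The snoRNA host RNAs (7 tested), which carry TOP tracts of their own, had 0 calls and a median of 0.15.

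Other families of short genes had positive medians with all lungs and medians near 0 without sham replicate 1. Mitochondrial ribosomal protein genes (77 tested, median length 2255 bases against 4180 for all tested protein-coding genes) had 0 calls and a median log2 fold change of 0.09, and 0.02 without that lung. Respiratory chain genes (87 tested, median length 1569 bases) had 1 call, Ndufv3 at 0.37 (adjusted p = 0.0191, limma; 0.0102 without sham replicate 1), and a median of 0.11, and -0.01 without that lung. Ribosomal protein pseudogenes (104 tested, median length 476.5 bases) had 1 call, Rpl21-ps10 at 0.72 (adjusted p = 0.0344, limma), and medians of 0.11 and -0.02. Without sham replicate 1 Rpl21-ps10 lost its call (0.75, adjusted p = 0.0554, limma), and Rpl34-ps1, named after its values were seen, was called lower (-0.64, adjusted p = 0.0443, limma). The median log2 difference of sham replicate 1 from the other sham lungs was -0.47 for the mitochondrial ribosome, -0.56 for the respiratory chain and -0.60 for the pseudogenes, against -0.69 for the cytosolic ribosomal protein genes and -0.21 for the translation factors.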

How the data were processed

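Whole-lung mRNA of 5 IPF and 5 sham mice was analysed. The authors used Fastp for trimming, HISAT2 for alignment and StringTie for quantification, and the deposited table holds FPKM. The methods name GRCm39, whereas positions in the table are those of GRCm38, and the submitters' processing notes list Bowtie 0.12.2. The library kit is KAPA mRNA HyperPrep in the methods and NEBNext Ultra in the labels. Reads per gene were recovered from FPKM and gene length, which gave whole multiples of 1 step (tolerance 0.01).

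The test was limma 3.58.1 (R 4.3.3, empirical Bayes with trend) on log2(FPKM + 0.1), for every gene averaging 0.1 FPKM or more. P-values were adjusted by Benjamini-Hochberg over all of these genes. A fold change on this scale understates that of low genes. On simulated data the fit recovered the fold sizes but missed some changes of 1 log2 unit, so smaller changes in single genes could be missed here. The deposited values are FPKM, and the alternative on recovered reads was limma voom; DESeq2 was not run. Copies were searched with BLAST 2.17.0. The genes and lists were chosen with earlier results of these data known. Named genes were the 5 highest and 5 lowest in level, the 3 largest fold changes in each direction among genes averaging 1 FPKM or more, the stalk genes, paralogs with their parents and X-linked genes; Rps7, Rpl26, Rps28, Rpl17 and Rpl7a were added after their values were seen. One gene outside the naming rule is not reported here.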

Additional observations from a re-analysis of the deposited data

Results flagged for a closer look

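In groups of 5 lungs, a value was set aside for a closer look where its gap to the next lung was large against the whole range of the group (Dixon's test at 95%). Of 54 groups examined, 13 held such a value, where chance gives about 1 in 20. Of these, 10 were sham replicate 1, at the low end each time. They were the mean log2(FPKM + 0.1) of the set (5.836), its share of summed FPKM (2.581%), and the FPKM of Rplp1 (364.7), Rps15 (230.4), Rps14 (104.0), Rpl3 (108.6), Rpl22l1 (8.296), Rpl22 (40.41), Rpl39 (28.13) and Rps27 (49.38). The groups are not independent, since these genes varied together. The other 3 were high values of near-absent paralogs, Rpl3l in IPF replicate 4 (0.2672 FPKM) and Rpl39l in IPF replicate 2 (0.5053 FPKM) and sham replicate 4 (0.4335 FPKM), each from at most 8 reads.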

How the results depend on the processing

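The count of called ribosomal protein genes was 0 under all 28 alternatives, 6 of them chosen after seeing the data, and the smallest adjusted p was 0.0625 (limma with the replicate block). Over all genes, 0.791% (replicate block without sham replicate 1) to 9.61% (protein-coding genes only) were called in these fits, and where few genes are called the 0 says little. Unadjusted p under 0.05 was met by 1 to 18 genes, against 3 in the report. The most, 18 of 81 (22.2%), came with the replicate block, where 21.3% of all genes met it. The median log2 fold change stayed positive, from 0.01 to 0.20, and from 0.05 (without sham replicate 1) to 0.24 when 1 lung at a time was left out. For the difference of per-sample means these ranges were 0.01 to 0.20 and 0.04 to 0.24. Array weights, lowest for sham replicate 1 (0.431), gave a median of 0.06. The difference in the share of summed FPKM, 0.51 percentage points, ranged from 0.23 (without sham replicate 1) to 0.62, and was 0.22 as a share of reads. Lungs of the same replicate number were weakly correlated in their deviations from the group means (-0.02 to 0.10). For IPF replicates 1, 2 and 5 the sham lung with the highest correlation had the same number. For IPF replicates 3 and 4 it had another. Whether the numbers pair the lungs cannot be settled from these values. With the replicate block the median was 0.19, with 0 ribosomal protein genes and 1045 of all 20448 genes called, against 1196 without it.

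Of 23 named genes 11 changed sign under some alternative, with an adjusted p above 0.05 (limma) each time. With the length trend removed and sham replicate 1 left out, log2 fold changes were -0.0189 for Rpl10, -0.0109 for Rplp0, -0.0450 for Rplp1, -0.178 for Rps27 and -0.00481 for Rps27l. Under median-of-ratios scaling without that lung, Rpl10 was -0.00239 and Rps27 -0.141. Rps27 was also -0.136 by voom and -0.0638 with the replicate block, both without that lung, and -0.0409 with array weights. Quantile normalization gave -0.0194 for Rplp0 and -0.0133 for Rps3a1. Rpl24 was -0.0646 with the length trend removed, -0.00508 with array weights and -0.0893 with copies added and that lung left out. Copies added gave 0.0892 for Rpl21, 0.242 for Rps10 and 0.0165 for Rpl22l1, and without that lung 0.0263 for Rpl21 and 0.0795 for Rps10. Leaving out 1 lung at a time gave -0.156 to 0.0311 for Rpl22l1, -0.0454 to 0.193 for Rpl24, -0.128 to 0.0235 for Rpl3, -0.206 to 0.0552 for Rps10 and -0.133 to 0.266 for Rps27. The cause was not tested. Rpl39l fell below the level filter in some fits and gave no value there.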
